A study of Mus musculus with 45 samples.

Results

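Complement genes are described here in 4 tissues of mice with and without breast cancer. The 34 members are named components, regulators and receptors of the complement system, and all of them were found by symbol among the 55367 gene symbols of the count table. Female Balb/c mice, described as young adults, carried implanted polycaprolactone scaffolds, porous discs that fill with host cells. Tumor-bearing mice were inoculated orthotopically with 2000000 cells of the 67NR, 4T07 or 4T1 line, and control mice were not inoculated. Scaffolds, lungs and spleens of all 4 kinds of mice and primary tumors of the 3 inoculated kinds were sequenced at day 14, with 3 libraries in each of 15 groups and 45 libraries in all. The cell lines are sister triple negative lines derived from the same mouse mammary tumor: 67NR is known to form primary tumors only, 4T07 to disseminate, and 4T1 to form metastases. Each stage is thus represented by a single cell line, so a cell line and a metastatic stage cannot be told apart. According to the study, the libraries of a group came from separate mice. The labels do not say which libraries of different tissues came from the same mouse.

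Complement is a cascade of plasma and cell surface proteins that marks targets and draws in leukocytes. The classical pathway starts with C1q, the lectin pathway with mannose-binding lectins and ficolins, and the alternative pathway with C3 itself. All of them converge on C3 and then on C5, whose fragments act on receptors of myeloid cells and whose larger piece seeds the membrane attack complex. The liver is the main source of most plasma components, while macrophages are a well known source of C1q, fibroblasts of C1r, C1s and C3, and follicular B cells and follicular dendritic cells carry Cr2.

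The libraries held between 3491888 and 8175380 counts (median 5149589), and the ranges of the 4 tissues overlapped. Levels are given in CPM, the counts of a gene scaled to a library total of 1000000. Since the protocol counts tags at the 3′ end of transcripts, levels of different genes are not compared with each other. Defining markers were present in each tissue: summed lung epithelium markers were 34911 to 37028 CPM in control lungs, summed B cell markers were 1082 to 1217 CPM in control spleens, and summed macrophage markers were 5173 to 6408 CPM in control scaffolds. The 4T07 lungs stood apart. Their 5 lung epithelium markers summed to 5693 to 14287 CPM, against 28467 to 37121 CPM in the 9 other lung libraries, and their 4 red cell markers summed to 42612 to 56416 CPM, against 11983 to 18749 CPM in control lungs. Their 8 B cell markers summed to 376 to 515 CPM against 123 to 162 CPM in control lungs. Over 541 genes at 5 CPM or more in control lungs and over 20-fold higher there than in control spleens, the median ratio of 4T07 to control lungs was 0.312, and over 222 genes chosen the other way round it was 17.4. The corresponding medians were 0.830 and 1.25 for 4T1 lungs. Among control lungs, library 5 held 222 CPM of liver markers against 4.86 to 9.24 CPM in the other control lungs. Among 4T07 scaffolds, library 22 held 8573 CPM of neutrophil markers against 2577 and 3026 CPM in the others. It also held more of the B cell marker Ms4a1, at 43.5 CPM against 6.68 and 4.97 CPM. Its Cr2 was at 42.0 CPM against 10.0 and 8.70 CPM.

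All 34 members had counts in some library. Of these, 11 had counts in fewer than all 45 libraries, from C5ar2, with counts in 44, down to Mbl2, a liver-derived lectin, with counts in 11. Masp2, Mbl2, Cfb, C8g, Cfi and C5ar2 did not reach a mean of 5 CPM in any group. Genes were tested where they had more than 10 counts over the libraries of a fit, which kept 30 of 34 members in primary tumors, 31 in scaffolds, 34 in lungs and 31 in spleens. Members left out were at 10 or fewer counts in all libraries of that tissue together: Masp2, Mbl2, C7 and C8g in tumors, Masp2, Mbl2 and C7 in scaffolds, and Mbl2, C7 and Cfi in spleens. P-values come from the quasi-likelihood test of edgeR and were adjusted over all genes tested by the method of Benjamini and Hochberg. A member was called where its adjusted p was under 0.05 in tumors or control tissues, or under 0.1 in comparisons of scaffolds, lungs or spleens between kinds of mice, and its fold change was over 2. This is the adjusted p given throughout. Log2 fold changes come from the fits, which scale libraries by TMM factors, so they can differ from ratios of the CPM shown. For example, C1qb and Cfp in 4T07 tumors and Cd59a in 4T1 spleens changed over 2-fold in the fits but not in mean CPM. C4b, C1ra, C1s1 and Cd59a have near-identical relatives (C4a, C1rb, C1s2 and Cd59b), between which reads may have been divided, so their values are uncertain.

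**Figure D1:**
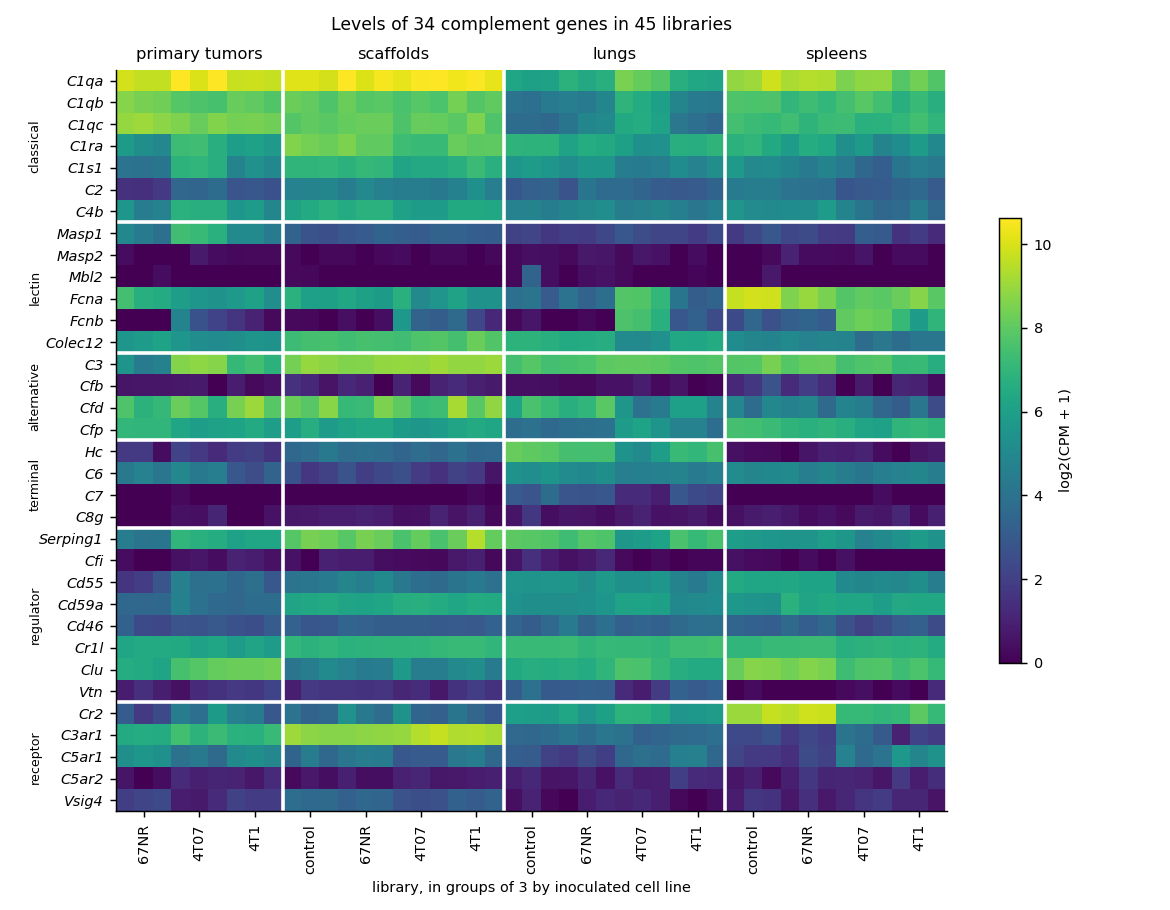
Levels of the 34 complement genes in all 45 libraries. Rows are genes grouped by role, columns are libraries grouped by tissue and by kind of mouse, and colour is log2(CPM + 1). Rows are read across libraries and not against each other. C1qa, C1qb and C1qc were lowest in control lungs and Fcna was highest in control spleens. Fcnb, at 0 in all 3 67NR tumors, reached its highest levels in 4T07 spleens and 4T07 lungs.

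The tissues of healthy mice differed widely in complement expression. Against control scaffolds, 24 of 33 members tested were called in control lungs, 8 higher and 16 lower, where 30% of all genes tested were called, 16.7% higher and 13.3% lower. In control spleens 19 of 33 were called against scaffolds, 7 higher and 12 lower, with 31.5% of all genes called (15.9% higher and 15.6% lower), and between lungs and spleens 20 of 33 were called, 9 higher in lungs and 11 lower, with 36.8% of all genes called (19.1% higher and 17.7% lower). The median log2 difference of the members was -1.22 for lungs against scaffolds, where that of all genes was 0.00, and -0.79 for spleens against scaffolds, where that of all genes was 0.06. All 7 members of the classical pathway were lower in lungs than in scaffolds. In bulk tissue, fewer cells of a type and less RNA per cell cannot be told apart, here and in all results that follow.

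Among the starters of the classical pathway, C1qa, which encodes the A chain of C1q, was at 1101, 1094 and 975 CPM in control scaffolds, 475, 533 and 925 CPM in control spleens and 76.7, 64.4 and 67.3 CPM in control lungs. Lungs were lowest in every library, with log2 differences of -4.14 (SE 0.25) against scaffolds and -3.24 (SE 0.24) against spleens. C1qb and C1qc, for the B and C chains, differed alike, by -4.17 and -4.51 between lungs and scaffolds and by -3.61 and -3.70 between lungs and spleens. These genes lie next to each other on the chromosome, in the order C1qb, C1qc and C1qa. C3ar1, the receptor of the C3a fragment, was also far higher in scaffolds. It was at 529, 438 and 417 CPM in control scaffolds, 11.3, 11.2 and 12.5 CPM in lungs and 4.08, 4.15 and 5.39 CPM in spleens. Its log2 difference was -5.52 (SE 0.20, edgeR adjusted p = 6.61e-11) for lungs against scaffolds and -6.85 (SE 0.22, edgeR adjusted p = 4.69e-11) for spleens against scaffolds.

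Of the terminal components, Hc, C6 and C7 were called higher in control lungs than in scaffolds, and Hc and C7 also higher than in spleens. Hc, which encodes C5, was at 288, 249.8 and 233 CPM in control lungs, 10.9, 12.8 and 18.9 CPM in scaffolds and 0.388, 0.231 and 0.216 CPM in spleens. The lungs lay above scaffolds by 3.96 on the log2 scale (SE 0.20, edgeR adjusted p = 6.42e-10). Against spleens, whose libraries held 4 counts together, the ratio was 905 (95% exact interval 353 to 3322, which covers counting error only, as do all intervals and floors here). C6, a part of the membrane attack complex, was at 42.0, 35.9 and 44.7 CPM in lungs, 33.8, 27.7 and 30.0 CPM in spleens and 5.45, 2.22 and 3.31 CPM in scaffolds. It was higher in lungs than in scaffolds by 3.30 on the log2 scale (SE 0.27, edgeR adjusted p = 8.86e-08), while the difference of 0.38 between lungs and spleens was not called. C7, of the same complex, had 152 counts in the control lungs and 0 in control scaffolds and control spleens. It was therefore at least 16.3-fold higher in lungs than in scaffolds and at least 13.4-fold higher than in spleens, against a floor of 3 counts per library. Vtn, a regulator that blocks the membrane attack complex, was also called higher in lungs in both comparisons. Mbl2 was called too, but 52 of its 55 counts in control lungs came from the library with liver markers, and without that library neither call against scaffolds nor against spleens was kept. The first was also lost without any single control scaffold library, and the second without control spleen library 7 or 8. C8g, the gamma chain of C8, was at 0.523, 2.34 and 0.324 CPM in control lungs, the highest in the same library, and was not called.

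Spleens were marked by the receptor Cr2, the ficolin Fcna and the chaperone and complement inhibitor Clu. Cr2, the receptor of C3d on B cells and follicular dendritic cells, was at 527, 523 and 819 CPM in control spleens, 15.7, 9.34 and 10.7 CPM in scaffolds and 63.8, 59.7 and 57.8 CPM in lungs, a log2 difference of 5.53 (SE 0.26, edgeR adjusted p = 3.91e-10) between spleens and scaffolds. Fcna, a soluble lectin made by macrophages, was at 825, 968 and 920.4 CPM in spleens, 109.5, 62.7 and 64.4 CPM in scaffolds and 13.6, 16.2 and 7.28 CPM in lungs, and the log2 difference between lungs and spleens was -6.23 (SE 0.33, edgeR adjusted p = 1.01e-09). Neither gene overlapped between these tissues. Clu was at 283, 415 and 396 CPM in spleens and 16.2, 21.1 and 33.4 CPM in scaffolds, a log2 difference of 3.77. Fcnb, the other mouse ficolin and a product of maturing neutrophils and monocytes, was low in all 3 tissues of healthy mice, with 4.27, 10.4 and 5.17 CPM in spleens and no more than 0.541 CPM in any control lung or scaffold library.

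The ficolins Fcna and Fcnb both rose in 4T07 lungs but moved in opposite directions in 4T07 and 4T1 spleens (given further on), and for this reason the 250 bases before their annotated start sites are shown, from RefSeq on GRCm38.p6, 5′ to 3′ in gene orientation. The 4T07 lung libraries were low in lung epithelium markers, and the part of this in the lung rise was not tested. Both genes lie on the minus strand of chromosome 2, Fcna at chr2:25627975-25628224 and Fcnb at chr2:28084879-28085128. Capitals mark a match to one of the 4 motifs searched on both strands: AGAGGAAG (PU.1 site), the core of the interferon-stimulated response element, TTCNNNGAA (STAT site) and TTGCGCAA (C/EBP site).
Fcna: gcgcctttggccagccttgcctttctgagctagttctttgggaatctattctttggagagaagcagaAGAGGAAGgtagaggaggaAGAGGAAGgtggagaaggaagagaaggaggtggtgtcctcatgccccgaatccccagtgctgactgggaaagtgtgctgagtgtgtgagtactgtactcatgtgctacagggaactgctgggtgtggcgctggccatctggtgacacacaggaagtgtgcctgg
Fcnb: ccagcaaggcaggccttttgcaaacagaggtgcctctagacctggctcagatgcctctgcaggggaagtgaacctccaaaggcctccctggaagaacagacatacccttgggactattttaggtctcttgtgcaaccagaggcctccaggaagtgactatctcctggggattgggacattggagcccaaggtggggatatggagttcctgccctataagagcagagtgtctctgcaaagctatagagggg
The Fcna window held AGAGGAAG in 2 places, 183 and 164 bases before the start site, and the Fcnb window held none of the 4 motifs. AGAGGAAG was found in 3.67% of 32851 mouse promoter windows of the same length, the interferon core in 2.98%, TTCNNNGAA in 7.02% and TTGCGCAA in 0.164%. Windows were at hand for 25 of the 34 members. Among these, the interferon core was in that of Cd59a, TTCNNNGAA in those of C7 and Masp2, AGAGGAAG in that of Fcna alone and TTGCGCAA in none. A match is a description of the letters and not a site of binding.

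In primary tumors the question was how tumors of the sister lines differed. Tumors of 4T07 cells expressed more C3, C1s1, C1ra, C4b, C2, Masp1, Fcnb, Serping1, Clu, Cd55 and Cr2 than 67NR tumors, and less C5ar1, Vsig4, Fcna, C1qb and Cfp. Of 30 members tested, 16 (53.3%) were called in 4T07 against 67NR tumors, 11 higher and 5 lower, where 28.9% of all genes were called, 17.1% higher and 11.8% lower. In 4T1 against 67NR tumors 9 were called, 7 higher and 2 lower (20.7% of all genes called, 11.6% higher and 9.07% lower), and in 4T1 against 4T07 tumors 9 were called, 2 higher and 7 lower (8.61% of all genes called, 3.82% higher and 4.79% lower). The median log2 fold change of the members was 0.42 for 4T07 and 0.26 for 4T1 against 67NR tumors, where the medians of all genes were 0.16 and 0.09. The comparisons share the 67NR or the 4T07 libraries and are thus not independent of each other.

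C3 rose in 4T07 against 67NR tumors, and of the 7 members of the classical pathway 4 rose and 1 fell. The shares of all genes called in this comparison, given above, are to be set beside these counts. C3, the component on which all pathways converge, was at 407, 452 and 408 CPM in 4T07 tumors, 133, 167 and 112 CPM in 4T1 tumors and 44.1, 19.6 and 24.3 CPM in 67NR tumors. The 3 groups did not overlap, and the differences between them were called, with log2 fold changes of 3.61 (SE 0.25, edgeR adjusted p = 6.16e-08) for 4T07 and 2.04 (SE 0.24, edgeR adjusted p = 9.75e-06) for 4T1 against 67NR, and -1.57 (SE 0.22, edgeR adjusted p = 0.000219) for 4T1 against 4T07. C1s1, a serine protease of the C1 complex, was at 117, 125 and 102 CPM in 4T07 tumors, 15.6, 14.8 and 16.4 CPM in 67NR tumors and 26.0, 40.0 and 30.4 CPM in 4T1 tumors. The 4T07 libraries lay far above both other groups, by 2.63 (SE 0.19, edgeR adjusted p = 1.03e-07) over 67NR, with 4T1 lower than 4T07 by 1.79 on the log2 scale (edgeR adjusted p = 1.02e-05). For 4T1 against 67NR the log2 fold change of 0.84 stayed under the fold threshold. C1ra, the protease that activates C1s, was at 156, 166 and 99.6 CPM in 4T07 tumors against 54.6, 38.3 and 29.6 CPM in 67NR and 61.6, 66.2 and 51.6 CPM in 4T1 tumors. C4b, the target of C1s, was at 110.0, 105 and 104 CPM in 4T07 tumors against 46.5, 21.5 and 25.4 CPM in 67NR and 47.5, 57.8 and 28.7 CPM in 4T1 tumors. Both rose in 4T07 against 67NR tumors, by 1.54 and 1.53, and both were lower in 4T1 than in 4T07 tumors, although without 4T1 library 45 the C4b difference of -0.95 was under the fold threshold. C2, which joins C4b in the C3 convertase, was at 1.88 to 2.54 CPM in 67NR tumors, 9.98 to 12.4 CPM in 4T07 tumors and 5.40 to 6.35 CPM in 4T1 tumors, and rose in both comparisons with 67NR, by 2.16 and 1.34.

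The windows of 250 bases before the start sites of C3 (chr17:57228137-57228386, minus strand), C1ra (chr6:124512371-124512620, plus strand) and C1s1 (chr6:124542360-124542609, minus strand) are shown because these genes rose together in 4T07 tumors. C1ra and C1s1 are neighbours, and of the RefSeq start sites of C1s1 the one farther upstream was taken.
C3: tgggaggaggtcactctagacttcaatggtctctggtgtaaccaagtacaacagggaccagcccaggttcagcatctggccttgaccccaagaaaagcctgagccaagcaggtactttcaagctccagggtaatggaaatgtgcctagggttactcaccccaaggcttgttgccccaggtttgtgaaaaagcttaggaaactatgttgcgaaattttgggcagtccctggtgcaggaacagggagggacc
C1ra: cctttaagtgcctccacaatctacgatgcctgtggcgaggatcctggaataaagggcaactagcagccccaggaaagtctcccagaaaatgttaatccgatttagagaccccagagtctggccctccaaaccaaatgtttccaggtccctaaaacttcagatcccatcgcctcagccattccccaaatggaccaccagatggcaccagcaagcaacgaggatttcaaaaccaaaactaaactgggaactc
C1s1: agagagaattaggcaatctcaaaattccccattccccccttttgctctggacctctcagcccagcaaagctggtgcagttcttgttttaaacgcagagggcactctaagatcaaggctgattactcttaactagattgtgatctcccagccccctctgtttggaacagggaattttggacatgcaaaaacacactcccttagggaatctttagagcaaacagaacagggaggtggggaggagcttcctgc
All of these windows were without any of the 4 motifs, which says only that these letters are not in them.

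The lectin pathway moved both ways in tumors. Masp1, a protease bound to mannose-binding lectins and ficolins, was at 163, 143 and 107 CPM in 4T07 tumors, 30.4, 20.1 and 14.1 CPM in 67NR tumors and 32.7, 31.2 and 19.6 CPM in 4T1 tumors. The 67NR and 4T1 libraries overlapped, and the 4T07 libraries stood above both, by 2.43 (SE 0.26, edgeR adjusted p = 3.51e-06) over 67NR, with a log2 fold change of -2.25 (SE 0.25, edgeR adjusted p = 2.5e-05) for 4T1 against 4T07. Its mean of 137 CPM in 4T07 tumors was the highest of all 15 groups. Fcna was at 172, 102 and 92.6 CPM in 67NR tumors, above 59.4, 46.3 and 41.2 CPM in 4T07 and 51.6, 67.4 and 36.3 CPM in 4T1 tumors, and fell by 1.56 and 1.43 on the log2 scale. Fcnb had no counts in 67NR tumors and was at 26.9, 5.44 and 3.39 CPM in 4T07 tumors, at least 14.3-fold higher against a floor of 3 counts per library, or at least 5.31-fold without 4T07 library 31, which held 134 of the 176 counts. In 4T1 tumors Fcnb was at 2.01, 1.02 and 0.216 CPM, lower than in 4T07 tumors by 3.34 on the log2 scale (edgeR adjusted p = 0.0107). Leaving out the 4T07 library with the highest level took that log2 difference to -1.92 with an edgeR adjusted p of 0.0918, and the call was lost. S100a8, a neutrophil marker, was at 2070, 800 and 423 CPM in the same order of 4T07 tumors. In the 4T1 tumors it was at 413, 249 and 400 CPM and did not share the order of Fcnb. The part of neutrophils in the result was not tested.

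Of the regulators, 3 of 8 were called higher in each comparison with 67NR tumors and none lower. These counts are to be read against the shares of all genes called, given above for the same comparisons. Serping1, the C1 inhibitor, was at 127, 106 and 95.1 CPM in 4T07 tumors, 66.9, 78.1 and 74.3 CPM in 4T1 tumors and 21.5, 15.9 and 16.7 CPM in 67NR tumors. It rose by 2.35 (SE 0.18, edgeR adjusted p = 1.5e-07) and 1.82 (SE 0.18, edgeR adjusted p = 1.84e-06), without overlap. Clu was at 182, 227 and 272 CPM in 4T07, 302, 304 and 327 CPM in 4T1 and 95.4, 89.8 and 72.3 CPM in 67NR tumors, and rose by 1.16 and 1.66. The 4T07 call was lost without 4T07 library 33, at a log2 fold change of 0.99. Here the 4T1 tumors were highest, although the log2 difference of 0.50 from 4T07 was not called. Cd55, which speeds the decay of C3 convertases on cell surfaces, was at 24.1, 14.0 and 14.4 CPM in 4T07, 11.0, 14.3 and 6.48 CPM in 4T1 and 2.15, 2.80 and 5.93 CPM in 67NR tumors. The log2 fold changes were 2.02 (edgeR adjusted p = 0.000846) and 1.35 (edgeR adjusted p = 0.0187), and the second call was lost without any of 4 single libraries. Cd59a, an inhibitor of the membrane attack complex, was at 10.4 to 10.8 CPM in 67NR, 11.6 to 24.3 CPM in 4T07 and 10.4 to 12.7 CPM in 4T1 tumors and was not called.

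Besides C3, the alternative and terminal pathways gave calls of Cfp, Cfd and C6. Cfp, properdin, the stabilizer of the alternative convertase, was at 130.1, 125 and 127 CPM in 67NR tumors and 77.1, 59.0 and 66.0 CPM in 4T07 tumors, and fell by 1.17 on the log2 scale (edgeR adjusted p = 6.46e-05). Cfd, the protease factor D, known as a product of fat cells, was at 347, 521 and 232 CPM in 4T1 tumors and 209.9, 112 and 134 CPM in 67NR tumors, a log2 fold change of 1.08 (edgeR adjusted p = 0.0223) that was lost without any of 4 single libraries. C6 was at 6.40, 4.71 and 9.50 CPM in 4T1 tumors, below 18.8, 25.2 and 17.2 CPM in 67NR and 29.3, 18.5 and 22.3 CPM in 4T07 tumors. It fell by 1.77 against 67NR (SE 0.29, edgeR adjusted p = 0.000275) and was lower by 1.71 against 4T07 (SE 0.29, edgeR adjusted p = 0.000947). No library of 4T1 tumors overlapped with either group.

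Among the receptors, C5ar1, the receptor of the C5a fragment on neutrophils and macrophages, was at 38.4, 49.0 and 39.0 CPM in 67NR tumors, 32.0, 38.5 and 28.9 CPM in 4T1 tumors and 14.9, 18.9 and 11.9 CPM in 4T07 tumors. The 4T07 tumors were lowest without overlap, with log2 fold changes of -1.71 (SE 0.22, edgeR adjusted p = 1.82e-05) against 67NR and of 1.16 (SE 0.21, edgeR adjusted p = 0.00179) for 4T1 against 4T07. Vsig4, a receptor of C3 fragments on resident macrophages, followed the same order at low levels, with 2.96 to 4.23, 2.59 to 3.29 and 0.726 to 1.41 CPM, and the difference of 4T1 from 4T07 tumors was lost without any of 4 single libraries. C3ar1, at 89.2 to 93.4 CPM in 67NR, 116 to 169 CPM in 4T07 and 107 to 140.3 CPM in 4T1 tumors, was not called. Cr2 was at 21.5, 13.6 and 53.9 CPM in 4T07 tumors and 7.53, 2.52 and 4.23 CPM in 67NR tumors, a log2 fold change of 2.37 (edgeR adjusted p = 0.00297). Ms4a1, which encodes the B cell surface protein CD20, was at 26.1, 11.6 and 66.0 CPM in the same 4T07 libraries. It was at 2.96, 1.12 and 5.93 CPM in the 67NR libraries. Its order of libraries in 4T07 tumors was that of Cr2. Cd79a, another B cell marker, was at 2.21, 0.181 and 0.847 CPM in those 4T07 libraries and did not share this order. The 8 B cell markers summed to 34.7 to 190 CPM in 4T07 and 9.51 to 16.4 CPM in 67NR tumors. In 4T1 tumors Cr2, at 23.8, 19.5 and 6.48 CPM, overlapped with 67NR tumors. It was called higher there by 1.60 (edgeR adjusted p = 0.0384), a call that was lost without any of libraries 20, 21, 43 or 44. The part of B cells in these differences was not tested.

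The chains of C1q, which are needed together in the protein, did not move together in tumors. C1qa was at 953, 796 and 797 CPM in 67NR tumors and 1579, 1066 and 1542 CPM in 4T07 tumors, higher without overlap but with a log2 fold change of 0.47 that was under the threshold. C1qb was at 409, 349 and 320.1 CPM in 67NR tumors and 224, 198 and 182 CPM in 4T07 tumors, and fell by 1.08 on the log2 scale (SE 0.16, edgeR adjusted p = 0.000104). C1qc, at 490.5, 532 and 438 against 381, 284 and 391 CPM, had a log2 fold change of -0.72 and was not called. The ratio of C1qb to C1qa counts was 0.402 to 0.438 in 67NR tumors, 0.252 to 0.333 in 4T1 tumors and 0.118 to 0.186 in 4T07 tumors, without overlap between the groups. The ratio of C1qc to C1qa followed the same order, at 0.515 to 0.668, 0.385 to 0.397 and 0.241 to 0.267. Such ratios also varied outside tumors. In scaffolds the ratio of C1qb to C1qa was 0.128 to 0.160 in 4T07, 0.145 to 0.246 in 4T1, 0.169 to 0.210 in 67NR and 0.213 to 0.272 in control mice. It spanned 0.218 to 0.431 among control spleens. The ratio of C1qc to C1qa was 0.515 to 0.590 in 4T1 spleens and 0.149 to 0.361 in control spleens. In 67NR and 4T07 spleens it was 0.172 to 0.267 and 0.225 to 0.416. These are 3′ tag ratios and do not give the number of chains made.

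The tumors also differed in the makeup shown by markers. The 8 fibroblast markers summed to 940 to 1146 CPM in 67NR, 4805 to 7123 CPM in 4T07 and 5746 to 8904 CPM in 4T1 tumors. The 6 epithelial markers (Epcam, Cdh1 and keratins) summed to 22.3 to 33.6, 165 to 234 and 1002 to 1112 CPM. The 8 neutrophil markers were at 41.8 to 392, 1056 to 4694 and 639 to 1042 CPM, and the 10 macrophage markers at 2051 to 2307, 1526 to 1955 and 1337 to 1997 CPM. The epithelial markers of 67NR tumors lay within the 13.9 to 89.7 CPM of control scaffolds, from mice without a tumor. Whether 67NR tumor cells express these markers was not tested, so they are not read as the share of tumor cells in 67NR tumors. No marker of these lists was at 0 in any tumor group. Every 4T1 library was above every 67NR library in summed fibroblast markers. In 4T1 against 67NR tumors C3, Serping1 and C2 were called higher, and C1s1, C1ra, C4b and Masp1 were not called. The part of these cell types in the results was not tested.

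**Figure D2:**
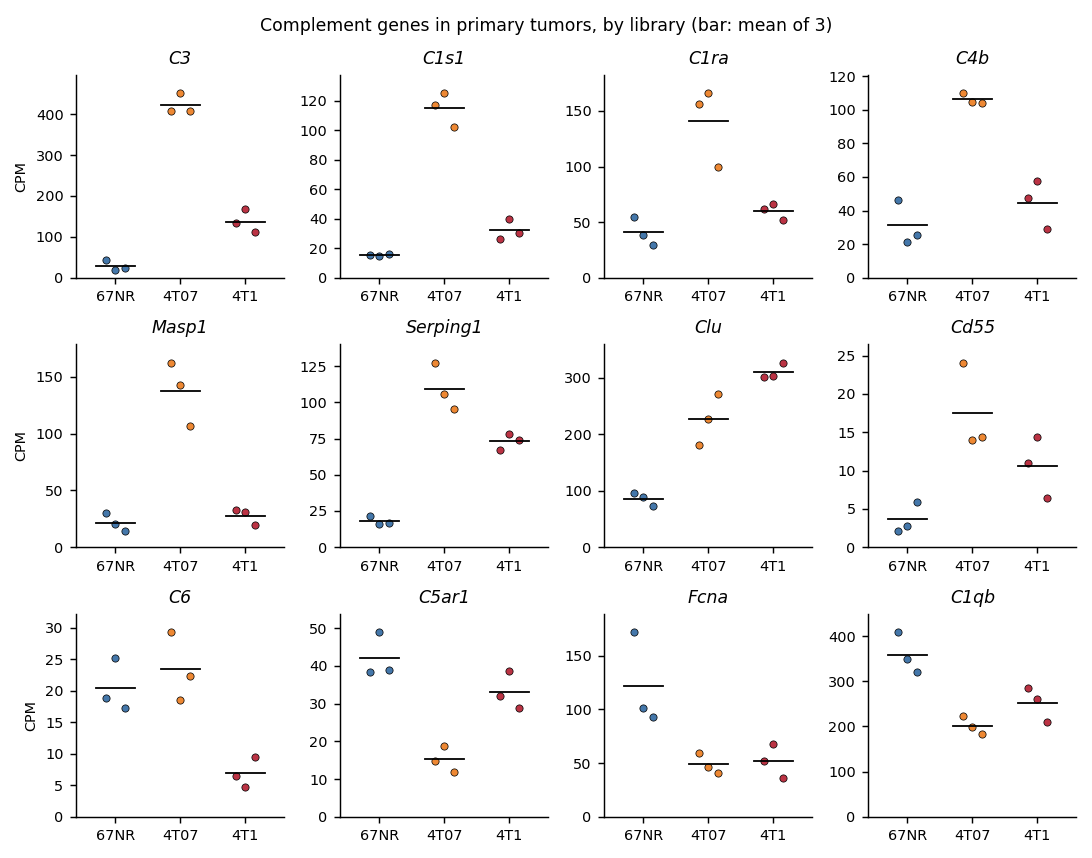
Levels of 12 complement genes in primary tumors. Each panel is 1 gene, the y axis is CPM from 0, points are the 3 libraries of each of the 67NR, 4T07 and 4T1 groups, and bars are group means. C3, C1s1, C1ra, C4b, Masp1 and Serping1 are highest in 4T07 tumors, Clu is highest in 4T1 tumors, C6 is lowest in 4T1 tumors, C5ar1 is lowest in 4T07 tumors, and Fcna and C1qb are highest in 67NR tumors.

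In scaffolds, the implants meant to act as an engineered site for disseminated tumor cells, complement genes differed little from control mice except in 4T07 mice. Against control scaffolds, 0 of 31 members were called in 67NR mice by edgeR, with 1 at an unadjusted p under 0.05 and 0 by DESeq2, where 0% of all genes were called. In 4T1 mice 0 of 31 were called by edgeR, with 4 at an unadjusted p under 0.05 and 0 by DESeq2, where 0.0226% of all genes were called, 0.0135% higher and 0.00903% lower. In 4T07 mice 4 of 31 were called, 1 higher and 3 lower, where 7.44% of all genes were called (3.85% higher and 3.59% lower), and the median log2 fold change was -0.40 for the members and 0.04 for all genes. Between 4T1 and 4T07 scaffolds 1 member was called, higher (1% of all genes, 0.636% higher and 0.366% lower). Against 67NR scaffolds, 3 of 31 members were called in 4T07 mice (5.85% of all genes) and 0 in 4T1 mice by edgeR (0.0226% of all genes), with 6 at an unadjusted p under 0.05.

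C1ra was at 385, 337 and 303 CPM in control scaffolds, 367, 258 and 262 CPM in 67NR, 288, 248 and 251 CPM in 4T1 and 159, 148 and 142 CPM in 4T07 scaffolds. All 4T07 libraries lay below the 9 others, and C1ra fell by 1.34 against control (SE 0.18, edgeR adjusted p = 0.000626). Vsig4 was at 13.4, 11.2 and 11.6 CPM in control and 5.50, 4.91 and 5.28 CPM in 4T07 scaffolds, and fell by 1.35 (SE 0.22, edgeR adjusted p = 0.00147), with 67NR and 4T1 libraries between them at 7.46 to 10.9 CPM. C5ar1 was at 9.86, 20.7 and 10.5 CPM in control scaffolds, 17.2, 22.0 and 19.2 CPM in 67NR, 18.0, 21.8 and 11.1 CPM in 4T1 and 6.36, 7.27 and 7.30 CPM in 4T07 scaffolds. It fell by 1.12 against control (SE 0.28, edgeR adjusted p = 0.0165), but without control library 2 its log2 fold change was -0.71 and not called. It was higher in 4T1 than in 4T07 scaffolds by 1.30 (SE 0.28, edgeR adjusted p = 0.0489), a difference that was lost without any single 4T07 library, with adjusted p from 0.101 to 0.134 in edgeR. Macrophage markers summed to 4109 to 4505 CPM in 4T07 scaffolds and 5173 to 6408 CPM in control scaffolds, and their part in these results was not tested.

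Fcnb was the member that rose in 4T07 scaffolds. It was at 49.3, 9.43 and 7.77 CPM in 4T07, 11.8, 3.73 and 1.26 CPM in 4T1 and 0 to 0.370 CPM in control and 67NR scaffolds. Every 4T07 and 4T1 library was above every control and 67NR library. The 4T07 libraries held 501 counts against 2 in control scaffolds, a ratio of 222 (95% exact interval 61.1 to 1836, edgeR adjusted p = 0.00114), and without library 22, which had the most neutrophil markers, the ratio was 74.1 and the fitted log2 fold change 5.87 (edgeR adjusted p = 0.00146). The 4T1 libraries held 99 counts, a ratio of 50.6 (13.6 to 424) that was 21.5 without library 34, and were not called (edgeR adjusted p = 0.192). S100a8 was at 3966, 952 and 832 CPM in the 4T07 scaffolds in the same order as Fcnb. The library orders of these genes also agreed in 4T1 scaffolds, lungs and spleens. They did not agree in 4T07 lungs, 4T07 spleens or 4T1 tumors. The part of neutrophils was not tested. C3 was at 340.0 to 491 CPM in control, 386 to 479 CPM in 67NR, 472 to 559.9 CPM in 4T07 and 475 to 516 CPM in 4T1 scaffolds, and the log2 fold changes of 0.12 and 0.10 for 4T07 and 4T1 were not called.

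In lungs, the natural site of metastasis, 4T07 mice showed by far the most called members. Of 34 members tested, 17 were called in 4T07 against control lungs, 7 higher and 10 lower, where 29% of all genes were called, 15.3% higher and 13.7% lower. In 4T1 lungs 5 of 34 were called, 2 higher and 3 lower, where 4.61% of all genes were called (3.56% higher and 1.05% lower), and in 67NR lungs 1 of 34, lower, where 4.25% of all genes were called (2.52% higher and 1.73% lower). The median log2 fold change of the members was 0.21 in 4T07 and -0.19 in 4T1 lungs, where that of all genes was -0.01 and 0.00. Between 4T1 and 4T07 lungs 15 of 34 were called, 6 higher and 9 lower (23.5% of all genes, 11.6% higher and 11.9% lower). Against 67NR lungs, 14 of 34 were called in 4T07 (29.7% of all genes) and 5 of 34 in 4T1 lungs (5.03% of all genes). The control libraries are shared by these comparisons.

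The ficolins and C1q rose in 4T07 lungs. Fcnb was at 202, 179 and 105 CPM in 4T07 lungs, 6.44, 8.76 and 4.50 CPM in 4T1 lungs and 0 to 0.541 CPM in the 6 control and 67NR lung libraries. The groups did not overlap. The 4T07 libraries held 2306 counts against 4 in control lungs, a ratio of 710.0 (95% exact interval 277 to 2608, edgeR adjusted p = 1.7e-12), and the 4T1 libraries 132 counts, a ratio of 28.9 (11.0 to 107, edgeR adjusted p = 1.37e-05). Fcna was at 221, 216 and 130.2 CPM in 4T07 lungs against 13.6, 16.2 and 7.28 CPM in control, 15.3, 9.58 and 13.2 CPM in 67NR and 16.4, 7.77 and 9.59 CPM in 4T1 lungs. It rose by 4.00 in 4T07 lungs (SE 0.28, edgeR adjusted p = 6.22e-10), and in 4T1 lungs it stayed within the range of the control and 67NR libraries but for the highest library. C1qc was at 87.2, 95.6 and 69.2 CPM in 4T07 lungs and 12.6, 12.6 and 11.2 CPM in control lungs, and C1qb at 119, 91.3 and 62.5 and at 15.7, 13.9 and 20.7 CPM. They rose by 2.86 (SE 0.22, edgeR adjusted p = 2.79e-09) and 2.50 (SE 0.22, edgeR adjusted p = 1.4e-08), and C1qa, at 361, 277 and 219 against 76.7, 64.4 and 67.3 CPM, by 2.10. The ratio of C1qb to C1qa was 0.286 to 0.330 in 4T07 lungs and overlapped with 0.205 to 0.308 in control lungs. Cfp also rose, by 2.22, from 12.7, 14.4 and 11.5 CPM in control to 57.8, 70.0 and 44.5 CPM in 4T07 lungs.

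Hc and C7 of the terminal pathway, the regulators Vtn and Serping1, and Cfd fell in 4T07 lungs. Hc was at 288, 249.8 and 233 CPM in control lungs, 182, 173 and 178 CPM in 67NR, 143, 129.6 and 187 CPM in 4T1 and 43.0, 31.8 and 58.6 CPM in 4T07 lungs. It fell by 2.47 in 4T07 lungs (SE 0.19, edgeR adjusted p = 2.69e-09). In 67NR and 4T1 lungs all 6 libraries lay below the lowest control library, with log2 fold changes of -0.64 and -0.73 that did not reach the fold threshold (edgeR adjusted p = 0.0312 and 0.0142). C7 was at 7.32, 5.95 and 12.5 CPM in control and 1.48, 1.45 and 0.868 CPM in 4T07 lungs and fell by 2.68 (SE 0.37, edgeR adjusted p = 5.17e-06). Vtn was at 7.67, 14.8 and 6.96 CPM in control and 1.48, 0.826 and 2.60 CPM in 4T07 lungs and fell by 2.51 (SE 0.37, edgeR adjusted p = 1.16e-05). Neither overlapped with control. Cfd was at 72.9, 191 and 144 CPM in control lungs, 102, 126 and 238 CPM in 67NR, 47.6, 14.7 and 19.5 CPM in 4T07 and 62.5, 63.3 and 26.1 CPM in 4T1 lungs. It fell by 2.25 in 4T07 lungs (SE 0.41, edgeR adjusted p = 0.000127) and by 1.41 in 4T1 lungs (SE 0.38, edgeR adjusted p = 0.0281), and the 4T1 call was lost without control library 5. Adipocyte markers summed to 86.1 to 248 CPM in control, 27.7 to 52.5 CPM in 4T07 and 37.2 to 52.5 CPM in 4T1 lungs, with Lep at 0 in all these groups, and their part was not tested. Serping1 fell by 1.92, Colec12, a scavenger receptor of the collectin family, by 1.60, C1ra by 1.23 and C1s1 by 1.20 in 4T07 lungs.

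The lowest members complete the lung calls. Cfi, the protease factor I, had 18 counts in control lungs against 2 in 4T07 and 2 in 4T1 lungs, control to tumor-bearing ratios of 7.31 (1.75 to 64.9) and 10.3 (2.46 to 91.4), and both calls were lost without control library 5, the 4T1 call also without 4T1 library 37 or 38. Mbl2, called in 67NR, 4T07 and 4T1 lungs alike, rested on 9.38 CPM in control library 5, with 0.174 and 0.324 CPM in the other control libraries. Its 67NR call was also lost without any single 67NR library. Without control library 5 Mbl2 was no longer among the calls, and 3 of the 5 members called in 4T1 lungs were lost, namely Mbl2, Cfi and Cfd, while C7 was gained.

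C5ar1 was called higher in the lungs of both 4T07 and 4T1 mice. It was at 8.02, 7.57 and 3.24 CPM in control, 2.49, 4.55 and 2.89 CPM in 67NR, 11.2, 14.2 and 12.1 CPM in 4T07 and 23.0, 23.9 and 10.8 CPM in 4T1 lungs. Both tumor-bearing groups lay above control, by 1.07 (SE 0.33, edgeR adjusted p = 0.0126) and 1.63 (SE 0.32, edgeR adjusted p = 0.00231), and the log2 difference of 0.56 between them was not called. The 4T07 call was lost without control library 6, at a log2 fold change of 0.74, or without 4T07 library 26, at 0.96. Neutrophil markers summed to 235 to 308 CPM in control lungs, 21042 to 24761 CPM in 4T07 and 11641 to 27390 CPM in 4T1 lungs, so these markers overlapped between the lines where Fcnb did not. Their part in the results was not tested. C3 was at 173 to 228 CPM in control, 246 to 259.5 CPM in 4T07 and 206 to 220.2 CPM in 4T1 lungs and was not called.

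Because 4T07 lungs differed from all other lungs in their tissue markers, the members were set between control lungs and 4T07 spleens. Among the 19 members at 5 CPM or more in either and over 2-fold apart, 19 of 19 had a 4T07 lung mean between those of control lungs and 4T07 spleens. Over all genes chosen likewise this held for 5278 of 5917, or 89.2%. The members lay at a median of 78.7% of the way from control lungs to 4T07 spleens, where all genes lay at 72.2%. Fcna was at 78.5%, C1qb at 41.7%, Serping1 at 88.3% and Hc at 82.9% of the way. For 4T1 lungs and 4T1 spleens 14 of 18 members were between, at a median of 11.5% of the way, where all genes were at 7.30%. The part of this shift of the 4T07 lung libraries, shared by most genes, in the members' results was not tested.

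**Figure D3:**
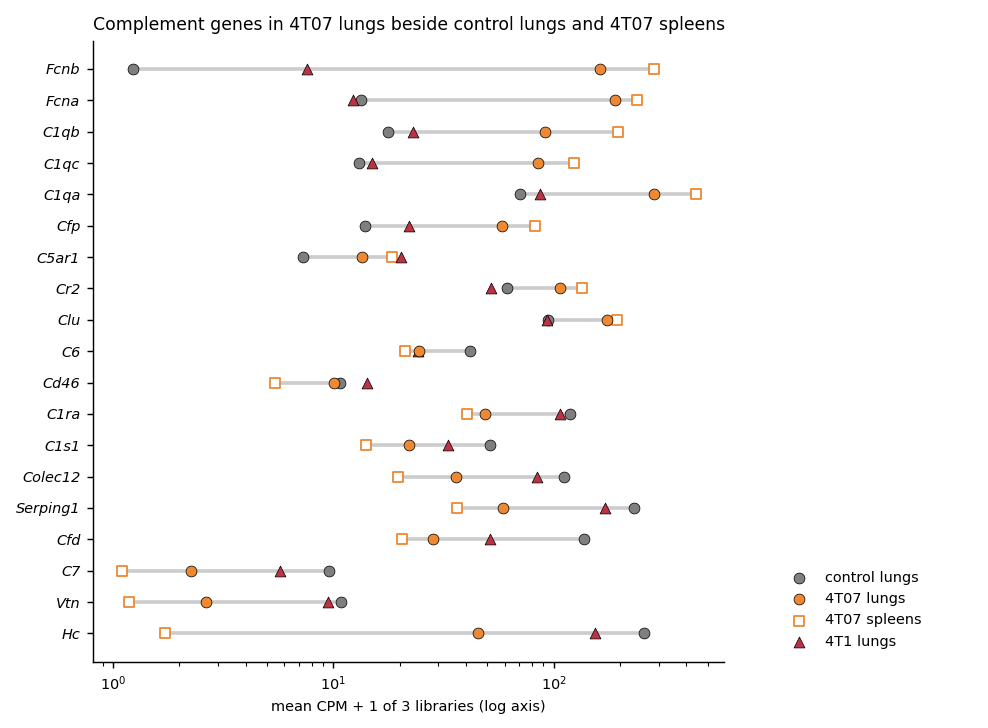
Position of 19 complement genes between lungs and spleens. Each row is a gene, the x axis is mean CPM + 1 over 3 libraries on a log scale, and symbols mark control lungs, 4T07 lungs, 4T07 spleens and 4T1 lungs. In all 19 rows the 4T07 lung lies between the control lung and the 4T07 spleen, while the members of 4T1 lungs lay at a median of 11.5% of the way to 4T1 spleens.

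In spleens, Cr2, Cd55, Fcna and C1ra fell and Fcnb and C5ar1 rose in both 4T07 and 4T1 mice. Of 31 members tested, 10 were called in 4T07 spleens, 3 higher and 7 lower, where 18.6% of all genes were called (8.26% higher and 10.3% lower), and 12 in 4T1 spleens, 4 higher and 8 lower, where 19.9% of all genes were called (9.84% higher and 10% lower). In 67NR spleens 1 was called, lower, where 2.26% of all genes were called (1.29% higher and 0.97% lower). The median log2 fold change of the members was -0.21 in 4T07 and -0.53 in 4T1 spleens, where that of all genes was -0.09 and -0.10. Between 4T1 and 4T07 spleens 3 were called, 1 higher and 2 lower (2.33% of all genes, 0.838% higher and 1.5% lower). Against 67NR spleens, 6 of 31 were called in 4T07 (14.7% of all genes) and 6 of 31 in 4T1 spleens (20.7% of all genes). The number called in 4T1 spleens was 7 without 4T1 library 40, which lost C1qa, C4b, C5ar2, Cfb and Cfd, and was 8 without control library 9 or without 4T1 library 42.

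Fcnb and the receptor C5ar1 rose most. Fcnb was at 264, 314 and 279.8 CPM in 4T07, 137, 56.8 and 122 CPM in 4T1, 8.17, 9.71 and 7.62 CPM in 67NR and 4.27, 10.4 and 5.17 CPM in control spleens. It rose by 5.62 in 4T07 (SE 0.36, edgeR adjusted p = 4.56e-08) and 4.27 in 4T1 spleens (SE 0.35, edgeR adjusted p = 4.03e-07). The 2 lines did not overlap, and Fcnb was lower in 4T1 than in 4T07 spleens by 1.35 on the log2 scale (SE 0.29, edgeR adjusted p = 0.0199). C5ar1 had the opposite order: it was at 50.1, 27.2 and 41.8 CPM in 4T1, 25.1, 11.6 and 15.8 CPM in 4T07 and 3.69, 2.54 and 2.37 CPM in control spleens. It rose by 4.03 (SE 0.35, edgeR adjusted p = 7.82e-07) and 2.74 (SE 0.36, edgeR adjusted p = 4e-05), and was higher in 4T1 than in 4T07 spleens by 1.29 (SE 0.29, edgeR adjusted p = 0.029). That call of the difference between the lines was lost without any of 3 single libraries. Neutrophil markers summed to 967 to 1660 CPM in control, 20633 to 25993 CPM in 4T07 and 11486 to 28853 CPM in 4T1 spleens, overlapping between the lines, and their part in the results was not tested.

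C3ar1 separated the lines in spleens. It was at 15.9, 12.6 and 7.16 CPM in 4T07 spleens, 0.959, 3.43 and 2.74 CPM in 4T1 spleens, 2.51, 3.83 and 2.92 CPM in 67NR and 4.08, 4.15 and 5.39 CPM in control spleens. It rose by 1.56 in 4T07 spleens (SE 0.34, edgeR adjusted p = 0.0026), while 4T1 lay below 4T07 spleens by 2.24 on the log2 scale (SE 0.37, edgeR adjusted p = 0.00437). Cd59a was at 84.6, 81.8 and 79.7 CPM in 4T1 spleens and 49.1, 44.8 and 41.6 CPM in control spleens and rose by 1.11 (SE 0.18, edgeR adjusted p = 0.000198). Its libraries in 67NR and 4T07 spleens, at 61.9 to 108 CPM, also lay above control, with log2 fold changes of 0.88 and 0.83 under the fold threshold. C5ar2, the second receptor of C5a, was called in 4T1 spleens at 2.40, 0.735 and 1.60 CPM against 0.583, 0.923 and 0.216 CPM, with overlap (edgeR adjusted p = 0.0623), and the call was lost without any of 4 single libraries.

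Fcna fell in the spleens of all 3 kinds of tumor-bearing mice. It was at 825, 968 and 920.4 CPM in control, 379, 503 and 361 CPM in 67NR, 217, 259.7 and 236 CPM in 4T07 and 296, 411 and 236 CPM in 4T1 spleens. The control libraries lay above the 9 others, and the log2 fold changes were -1.22 (SE 0.20, edgeR adjusted p = 0.00914), -1.75 (SE 0.20, edgeR adjusted p = 1.38e-05) and -1.28 (SE 0.20, edgeR adjusted p = 0.00017). Macrophage markers summed to 2248 to 2589 CPM in control, 1819 to 2068 CPM in 67NR, 1736 to 2209 CPM in 4T07 and 1449 to 1657 CPM in 4T1 spleens. Within spleens Fcnb and Fcna thus moved in opposite directions in 4T07 and 4T1 mice, whereas both rose in 4T07 lungs. In 4T07 lungs Fcna lay at 78.5% and Fcnb at 56.7% of the way from control lungs to 4T07 spleens. All genes compared lay at a median of 72.2%, and the part of this shift was not tested.

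Cr2 and Cd55 fell in 4T07 and 4T1 spleens and were not called in 67NR spleens. Cr2 was at 527, 523 and 819 CPM in control, 746, 927 and 866 CPM in 67NR, 139.6, 137 and 125 CPM in 4T07 and 136, 244 and 137 CPM in 4T1 spleens. It fell by 2.04 (SE 0.23, edgeR adjusted p = 9.63e-06) and 1.60 (SE 0.22, edgeR adjusted p = 6.06e-05). Cd55 was at 89.1, 75.0 and 74.6 CPM in control, 32.9, 28.3 and 31.8 CPM in 4T07 and 29.2, 38.0 and 21.7 CPM in 4T1 spleens, and fell by 1.19 and 1.18 (edgeR adjusted p = 0.000206 and 0.000198). B cell markers were also lower in 4T07 and 4T1 than in control spleens. Their sum was 1082 to 1217 CPM in control and 1084 to 1200 CPM in 67NR spleens. It was 434 to 510 CPM (median 482) in 4T07 and 292 to 484 CPM (median 297) in 4T1 spleens. The log2 difference of Cr2 for 4T1 against 4T07 spleens was 0.44 and was not called. Red cell markers summed to 46541 to 60782 CPM in control, 73630 to 94369 CPM in 4T07 and 80639 to 85631 CPM in 4T1 spleens. The part of these cell types in the results was not tested.

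Of the classical proteases and their substrates, C1ra was called lower in both 4T07 and 4T1 spleens. C1s1 and C2 were called lower in 4T07 spleens only, and C4b in 4T1 spleens only. C1ra was at 113, 125 and 87.5 CPM in control, 38.3, 54.0 and 26.1 CPM in 4T07 and 35.0, 57.3 and 29.9 CPM in 4T1 spleens, and fell by 1.28 and 1.17. C1s1, at 50.7, 31.4 and 33.9 CPM in control and 20.2, 10.9 and 8.02 CPM in 4T07 spleens, fell by 1.40 in 4T07 spleens. In 4T1 spleens its log2 fold change of -0.77 was not called. C2 was at 19.8, 21.5 and 21.1 CPM in control and 6.18, 6.90 and 7.45 CPM in 4T07 spleens and fell by 1.43 (SE 0.21, edgeR adjusted p = 0.000106). In 4T1 spleens C4b fell by 1.07, a call lost without library 7, 40 or 42. The C1q chain C1qa fell there by 1.08, a call lost without library 9 or 40. C1qb, at 101, 145 and 103 CPM in 4T1 against 205, 194 and 201 CPM in control spleens, lay below control. C1qc, at 132, 169 and 125 against 171, 151 and 137 CPM, overlapped with control. Cfb, factor B of the alternative convertase, was low in every tissue, with 43 counts in control spleens against 4 in 4T07 spleens, a ratio of 10.8 (3.91 to 41.3), and 10 in 4T1 spleens, a ratio of 3.85 (1.90 to 8.58). The 4T1 call was lost without any of 5 single libraries.

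**Figure D4:**
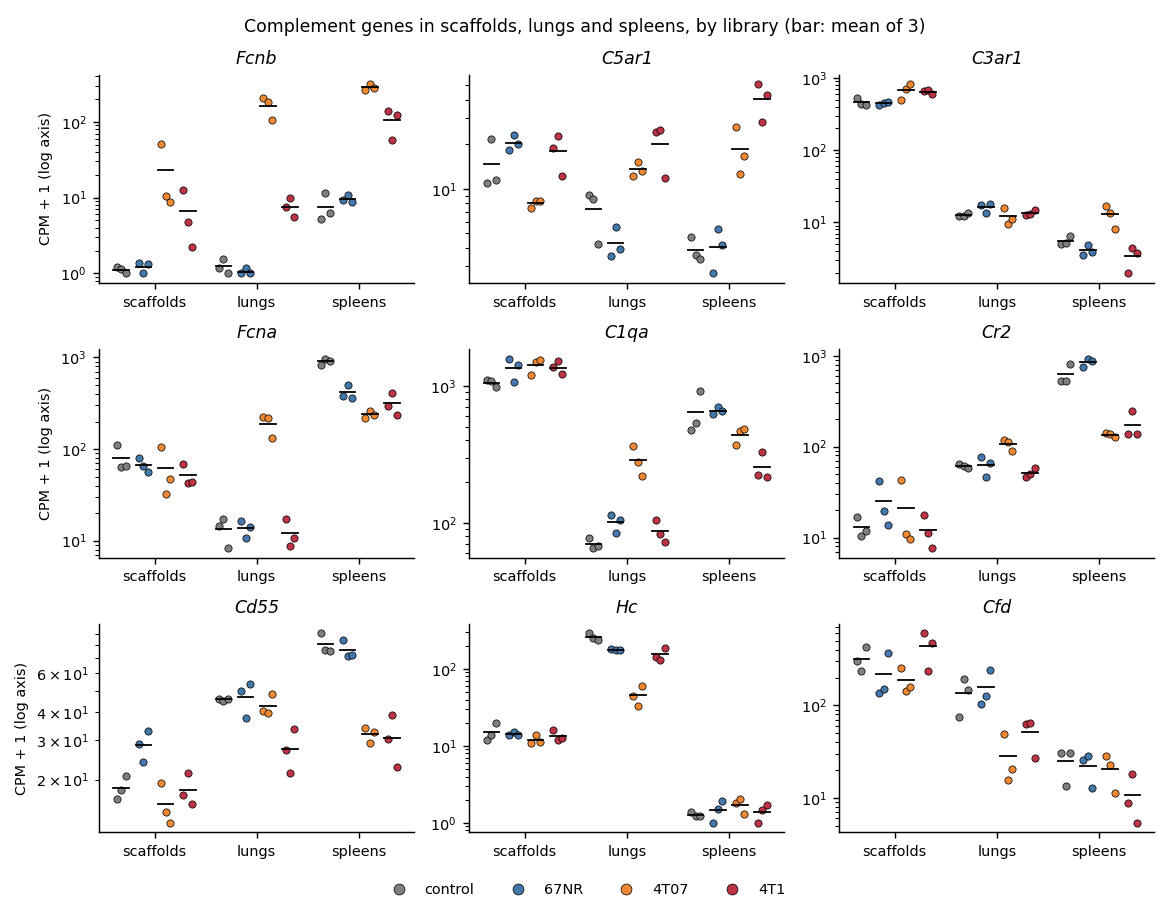
Levels of 9 complement genes in scaffolds, lungs and spleens of control, 67NR, 4T07 and 4T1 mice. Each panel is 1 gene, the y axis is CPM + 1 on a log scale, points are the 3 libraries of each group, and bars are their means. Fcnb is above control in all 4T07 and 4T1 groups, Fcna rises in 4T07 lungs and falls in spleens, Cr2 and Cd55 fall in 4T07 and 4T1 spleens, and C3ar1 stays highest in scaffolds.

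Whether a response differed between tissues was tested directly as a difference of log2 ratios to control. For 4T1 mice, 0 of 34 members differed between lungs and scaffolds by edgeR, with 7 at an unadjusted p under 0.05 and 0 by DESeq2, where 0.986% of all genes were called. Between spleens and scaffolds 7 of 34 differed (10.7% of all genes), and between lungs and spleens 5 of 34 (11.5% of all genes). For 4T07 mice 11 of 34 differed between lungs and scaffolds (15.1% of all genes), 7 between spleens and scaffolds (11.9%) and 18 between lungs and spleens (16.8%). For C5ar1 in 4T1 mice the log2 ratio to control was higher in spleens than in scaffolds by 3.84 (SE 0.50, edgeR adjusted p = 6.17e-06). In 4T07 mice it was higher in spleens than in scaffolds by 3.85 (SE 0.52, edgeR adjusted p = 4.11e-06). Cd59a likewise differed, by 1.15 (SE 0.20, edgeR adjusted p = 0.000227) between 4T1 spleens and scaffolds. The log2 ratio of Fcna in 4T07 mice was higher in lungs than in spleens by 5.62 (SE 0.48, edgeR adjusted p = 1.44e-10). All values of 4T07 lungs here come from the libraries with low lung epithelium markers, whose part was not tested. Fcnb, called in lungs and spleens of both lines and in 4T07 scaffolds, differed between 4T07 lungs and spleens by 3.63 (SE 1.18, edgeR adjusted p = 0.0273), a value that rests on 4 counts in control lungs and whose call was lost without control lung library 6 (edgeR adjusted p = 0.101).

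**Figure D5:**
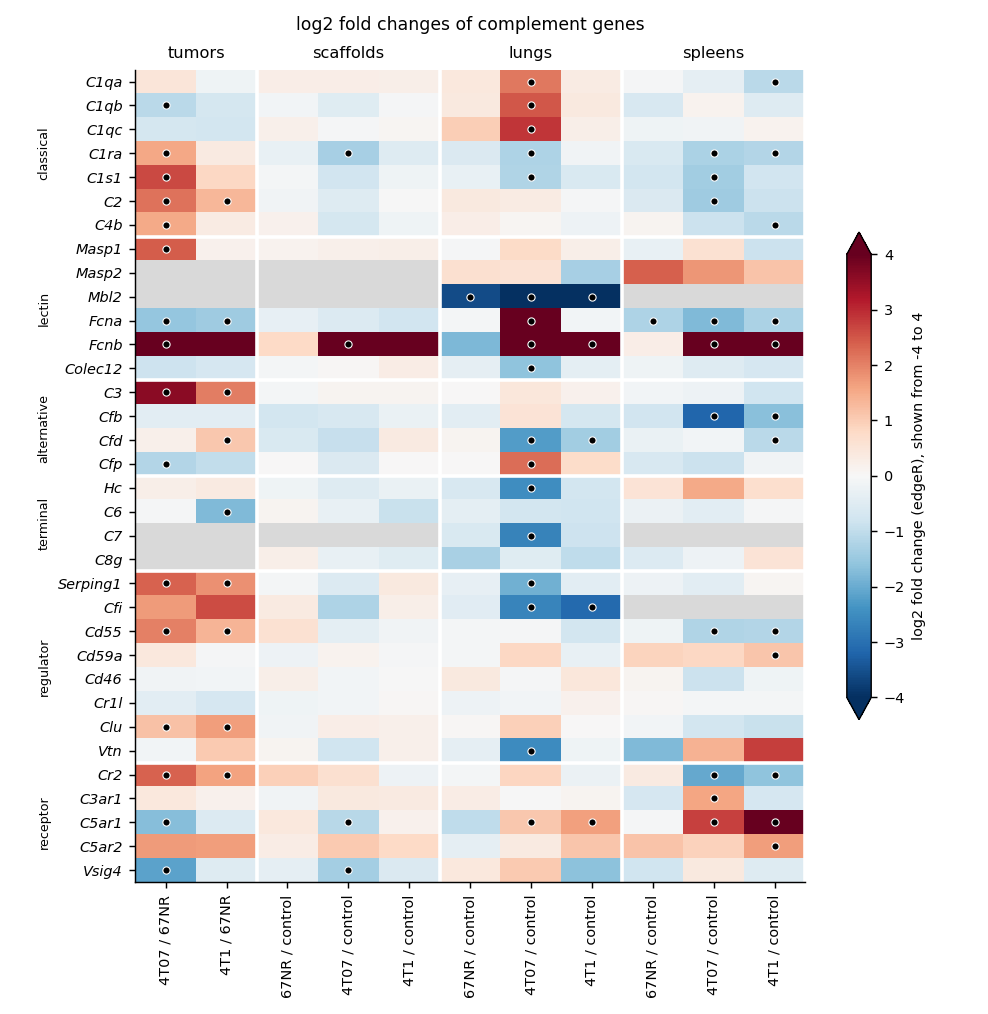
Log2 fold changes of the 34 complement genes in 11 comparisons of tumors, scaffolds, lungs and spleens. Rows are genes by role, columns are comparisons, colour runs from -4 to 4 on the log2 scale, black dots mark called members and grey marks members not tested. The columns of 4T07 against control lungs and 4T07 against 67NR tumors carry the most dots (17 and 16), and those of 67NR and 4T1 against control scaffolds carry none.

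Other complement genes outside the 34 were counted as a further list of 24. In tumors, 15 of 24 were tested, and 4 were higher and 1 lower in 4T07 against 67NR, 2 higher and 3 lower in 4T1 against 67NR, and 1 lower in 4T1 against 4T07, where 28.9%, 20.7% and 8.61% of all genes were called. C1rb and C1s2, relatives of C1ra and C1s1, were called higher in 4T07 tumors by 1.34 and 1.92. C1rb overlapped, at 3.10 to 16.1 CPM against 3.11 to 3.64 CPM in 67NR tumors. C1s2 had 50 counts in 4T07 tumors against 8 in 67NR tumors. Reads may have been divided between these genes and C1ra and C1s1. Itgax, a chain of complement receptor 4, was higher in 4T07 tumors by 2.09. In scaffolds 3 of 17 tested were called in 4T07 mice, Susd4 higher by 2.38 and C1rb and C1s2 lower by 1.51 and 1.16, and 0 in 67NR or 4T1 mice (edgeR, with 0 and 2 at an unadjusted p under 0.05), where 7.44%, 0% and 0.0226% of all genes were called. In lungs 20 were tested, and 2 were higher and 6 lower in 4T07 mice, 1 higher in 4T1 mice and 0 in 67NR mice (edgeR, with 4 at an unadjusted p under 0.05), where 29%, 4.61% and 4.25% of all genes were called. Itgam, a chain of complement receptor 3 on neutrophils and macrophages, rose by 3.06 in 4T07 and 3.28 in 4T1 lungs and by 2.75 and 2.58 in the spleens of 4T07 and 4T1 mice. In spleens 17 were tested, and 3 were higher and 2 lower in 4T07 mice and 4 higher and 3 lower in 4T1 mice, where 18.6% and 19.9% of all genes were called. The 5 of 15 called in 4T07 against 67NR tumors and the 5 of 17 called in 4T07 spleens are to be read against these shares. C1qbp, a C1q-binding protein of mitochondria, rose by 1.05 in 4T07 and 1.25 in 4T1 spleens.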

How the data were processed

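Gene counts of 45 libraries (QuantSeq 3′ FWD) were taken as deposited. Per the submitters' processing notes, the authors used Trim Galore 0.5.0, STAR 2.6.0 and featureCounts. The genome build, annotation and handling of molecular identifiers are not given in the sources used here. The deposited counts were not normalized, and 120 lines that repeated a symbol were summed. Among 45 pairs of libraries within groups, 0 were identical. Libraries of a tissue were fitted together with edgeR 4.0.16 in R 4.3.3 (quasi-likelihood test, TMM factors, genes with more than 10 counts over the fit), and differences between tissues in a fit of scaffolds, lungs and spleens. A difference between tissues was called at an adjusted p under 0.1 and a log2 difference over 1. DESeq2 1.42.0, other scaling, other filters and leaving out each library were alternatives. Scripts were tested on simulated data. Values in every library are given for members that were called, reached 5 CPM over the tissue and did not overlap, at most 4 per direction, with others added for their role after their values were seen. The members, gene lists and rules were chosen with earlier results of these data known. CPM use the deposited totals, and depth limits members with few counts. Values of some other genes are not reported here.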

Additional observations from a re-analysis of the deposited data

Results flagged for a closer look

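The responses below differed between tissues by a direct test of the difference of log2 ratios to control (edgeR, adjusted p under 0.1 and a log2 difference over 1). Each library was left out in turn, but no test for outlying libraries was run in groups of 3.

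In 4T1 mice, 7 of 34 members differed between spleens and scaffolds (10.7% of all genes), among them C5ar1, higher in spleens by 3.84, and Cr2, with a difference of -1.41. The Cr2 call was lost without any of 6 single libraries, with adjusted p from 0.178 to 0.320 in edgeR. Between lungs and spleens 5 of 34 members differed (11.5% of all genes), a share near that of all genes, among them C1qa by 1.38 and C5ar1 by -2.42.

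In 4T07 mice, 11 of 34 members differed between lungs and scaffolds (15.1% of all genes), among them Fcna by 4.38 and Hc by -2.09. Between spleens and scaffolds 7 of 34 differed (11.9% of all genes), among them C5ar1 by 3.85 and Cr2 by -2.72. Between lungs and spleens 18 of 34 differed (16.8% of all genes), among them Fcna by 5.62 and Hc by -4.14. The values of 4T07 lungs come from the libraries with low lung epithelium markers, whose part was not tested.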

How the results depend on the processing

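Of 214 calls of members, 207 were kept by DESeq2, 214 with RLE size factors, 214 without a count filter and 208 when only the compared groups were fitted, and no call changed direction. With at least 10 counts in every library, the number called went to 10 in 4T07 against 67NR tumors, 0 in 67NR lungs, 2 in 4T1 lungs, 1 in 4T1 against 4T07 spleens, 12 in control lungs against spleens and 3 between 4T07 spleens and scaffolds, where fewer members were tested. Without a filter it was 1 in 4T1 scaffolds, 3 in 4T1 against 4T07 scaffolds, 2 in 67NR lungs, 5 in 4T1 against 4T07 spleens and 2 between 4T1 lungs and scaffolds. With only the compared groups it was 0 in 4T1 against 4T07 scaffolds and 2 in 67NR lungs. DESeq2 called 3 in 4T1 lungs, losing Cfi and Mbl2. The cause of these changes was otherwise not tested.

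Leaving out each library in turn gave 0 to 3 calls in 4T1 against 4T07 scaffolds, 0 to 2 in 67NR lungs, 3 to 5 in 4T1 lungs, 1 to 2 in 67NR spleens, 7 to 14 in 4T1 spleens and 2 to 5 in 4T1 against 4T07 spleens. For differences between tissues it gave 0 to 1 between 4T1 lungs and scaffolds, 4 to 11 between 4T1 spleens and scaffolds, 3 to 10 between 4T1 lungs and spleens and 3 to 8 between 4T07 spleens and scaffolds. With TMM-scaled levels the highest group was the same for 28 of 34 members. No paired analysis was possible because library numbers are unique across groups and the labels do not link the tissues of a mouse.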
